A study of Homo sapiens with 4 samples.

Results

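Integrins are cell-surface receptors made of one alpha and one beta chain, and lymphocytes use them to stick to vessel walls, stromal cells and matrix. The beta1 chain pairs with many alpha chains, beta2 is the leukocyte chain, and beta7 pairs with alpha4 in gut homing and with alphaE in binding to E-cadherin on epithelium. On B cells the alpha4 chain, as alpha4beta1 or alpha4beta7, binds VCAM1, fibronectin or MADCAM1. The chain alphaL, with beta2, forms LFA-1, which binds ICAM proteins. These data cover 8 such genes, the beta subunits ITGB1, ITGB2 and ITGB7 and the alpha subunits ITGA4, ITGA5, ITGA6, ITGAL and ITGAE. They were taken as every probe set, the group of short array probes that reads one transcript target, whose annotation named exactly 1 of these symbols. That gave 21 of the 54675 probe sets on the array, and 8 of its 19775 genes.

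The cells were Z138, a human line established from mantle cell lymphoma. This B-cell cancer commonly expresses the transcription factor SOX11. The tested cells were stably transduced with lentiviral hairpin RNAs against SOX11 (shSOX11.1 and shSOX11.3), and their controls carried scrambled hairpins (shControl.1 and shControl.2), so every group carried a lentiviral hairpin. Each construct was measured once on an Affymetrix U133 Plus 2.0 array, with 2 arrays per group. All 4 samples come from 1 cell line, and no label says that the cultures were independent. The p-values therefore rest on the spread between these arrays, which may be technical or lie between constructs. The limma fit also draws on the spread of all other features tested.

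At its brightest probe set SOX11 itself had signals of 335 and 339 in shSOX11 cells and of 797 and 787 in shControl cells, or 42.5% of control (limma adjusted p = 0.131). Its other probe sets stood at 45.4% and 36.0% of control. Of the 6 B-cell markers examined, 5 were above the signal threshold of 24.8 on all arrays, all but CD22, and the 6 together summed to 13892 to 14618 on the shSOX11 arrays against 17298 to 17347 on the shControl arrays. That threshold is the median of all values in the table. None of the myeloid, platelet or endothelial markers was above it on all arrays, whereas CD3G of the 8 T and NK cell markers was, as were COL1A1 and KRT18 of the epithelial and stromal ones. Summed signals were 228 to 257 on shSOX11 arrays against 279 to 295 on shControl arrays for the T and NK cell markers, 115 to 126 against 83.1 to 92.2 for the 6 myeloid markers, and 67.2 to 72.0 against 93.1 to 107 for the 5 platelet markers. The 4 endothelial markers, all under the threshold, summed to 32.6 to 34.8 on shSOX11 arrays against 15.8 to 17.5 on shControl arrays. Signals this low give no measure of a difference. The 7 epithelial and stromal markers summed to 964 to 1162 against 1128 to 1177. Of the myeloid markers CSF1R and CSF3R were higher on both shSOX11 arrays, CD14 and LYZ were lower on both, and MPO and ITGAM overlapped. MS4A1 and CD74 made up most of the B-cell sum, CD3G of the T and NK cell sum, and COL1A1 of the epithelial and stromal sum. Of the B-cell markers CD79A and CD74 overlapped between the groups, and the others were lower on both shSOX11 arrays. The part of such markers in the integrin results was not tested.

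The beta1 chain and its alpha4 partner had higher signal in the shSOX11 cells, and the beta7 chain had lower signal. The very bright alphaE probe set differed little. None of these differences passed an adjusted p of 0.05 in limma, and that of ITGA4 was small on shSOX11.1 at its brightest probe set. In bulk RNA, fewer cells with a transcript and less of it per cell cannot be told apart. The LFA-1 pair, ITGAL and ITGB2, and the laminin receptor chain ITGA6 gave little or no signal above the threshold in either group. A probe set entered the test where its signal exceeded the threshold on at least 2 arrays. Of the 21 probe sets 9 did so, 3 of ITGB1, 4 of ITGA4 and 1 each of ITGB7 and ITGAE, and all 9 exceeded it on every array, with a lowest signal of 61.9. Of these 9, 7 had both shSOX11 values above both shControl values and 2 had both below. Over all 28202 probe sets tested, 18.9% were separated in the higher direction and 21.8% in the lower one. Probe sets of one gene read the same RNA and are not independent.

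**Figure D1:**
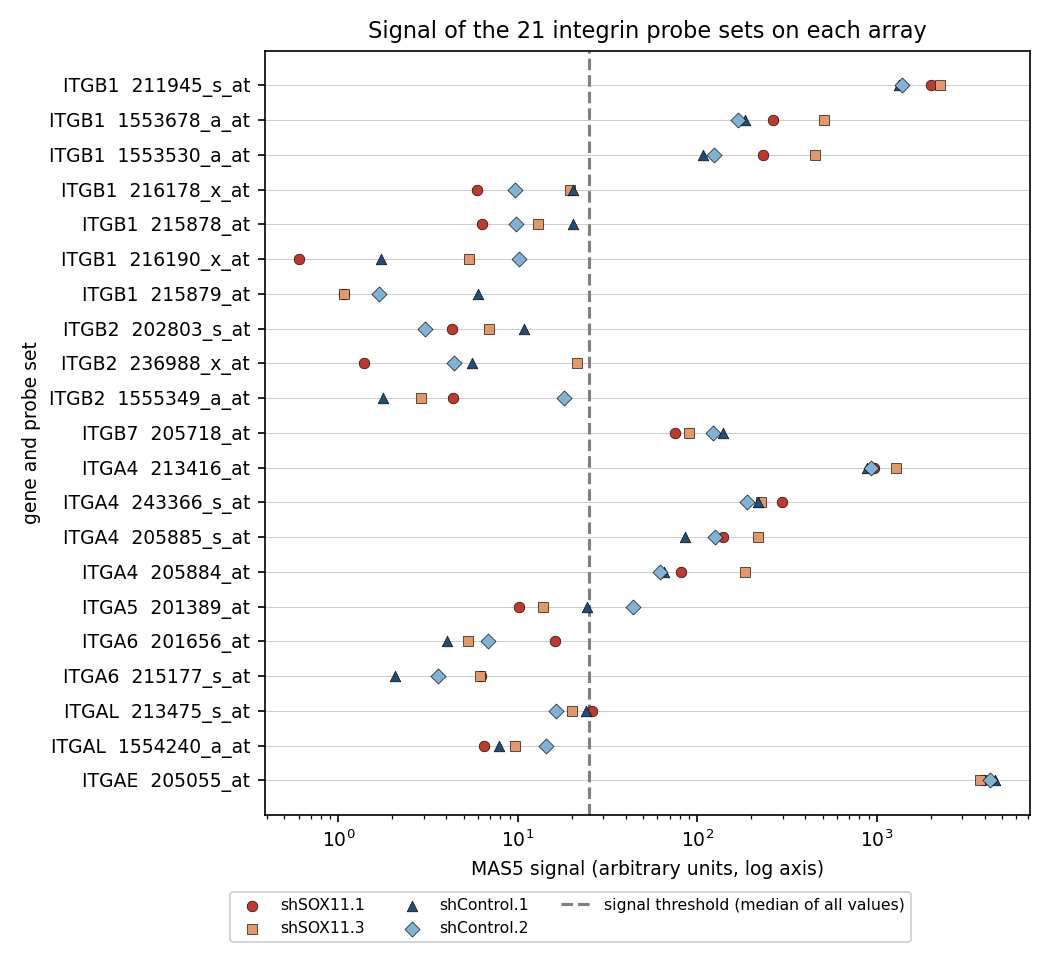
MAS5 signal in arbitrary units (log axis) of each integrin probe set, with 1 point per array, coloured by construct, and a dashed line at the signal threshold of 24.8. The 9 probe sets right of the line are those of ITGB1, ITGB7, ITGA4 and ITGAE that were tested, and the points of the other 12 lie mostly left of it.

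None of the 9 passed an adjusted p of 0.05 in limma (range 0.350 to 0.707), where 0.00355% of all probe sets did. At an unadjusted p under 0.05 in limma there were 5 higher and 1 lower, against 4.5% and 3.76% of all probe sets. Those 5 are all 3 tested ITGB1 probe sets and 2 of ITGA4, so they stand for 2 genes. With each gene represented by its brightest tested probe set, 0 of the 4 integrin genes passed the adjusted threshold in limma, as did 0% of the 11938 genes tested. At an unadjusted p under 0.05, ITGB1 was higher and ITGB7 lower, against 3.4% and 4.98% of all genes. With each array centred on its median these shares became 5.75% and 3.12%, and those of probe sets 6.78% and 2.24%, while the same integrin genes and probe sets stayed under 0.05. With 2 arrays a group, the smallest two-sided p of an exact permutation test is 0.333.

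ITGB1 encodes the beta1 chain, the partner of ITGA4, ITGA5 and ITGA6. At its brightest probe set, 211945_s_at, the signal was 2007 and 2242 on the shSOX11 arrays and 1322 and 1380 on the shControl arrays. The arrays of each group lay close together and the groups did not overlap, with a log2 mean of 11.05 ± 0.11 for shSOX11 and 10.40 ± 0.04 for shControl (SD, n = 2 each). The signal was 1.57-fold higher in shSOX11 cells, a log2 change of 0.65 with a standard error of 0.14 (limma adjusted p = 0.337 over genes, 95% interval 0.33 to 0.98). By unadjusted p, ITGB1 ranked 54 among the 11938 genes.

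The other bright ITGB1 probe sets gave a larger and less even difference. Probe set 1553530_a_at was at 233 and 456 with hairpins 1 and 3 against SOX11, and at 108 and 124 on the shControl arrays, 2.82-fold higher (log2 change 1.49, SE 0.30). Probe set 1553678_a_at was at 264 and 506 on shSOX11.1 and shSOX11.3, against 185 and 169 on the shControl arrays, 2.07-fold higher (log2 change 1.05, SE 0.29). At both of these shSOX11.3 was higher than shSOX11.1, by 0.97 and 0.94 on the log2 scale, whereas at 211945_s_at the gap was 0.16. The median absolute gap between those arrays over all tested probe sets was 0.329, and it was 0.213 between the shControl arrays. The 3 tested ITGB1 probe sets therefore differed in the size of the difference and shared its direction.

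The remaining ITGB1 probe sets, 4 in number, were under the threshold on every array. Their signals ran from 0.607 to 19.5 on the shSOX11 arrays and from 1.68 to 20.3 on the shControl arrays, and give no measure of a difference. The ratio of 3′ to 5′ signal of the beta-actin control reflects RNA length and labelling. It was 7.29 for shSOX11.1 and 5.31 for shSOX11.3, against 11.6 on both shControl arrays. For the GAPDH control the ratio was level, at 1.01 and 1.03 on the shSOX11 arrays and 0.98 and 1.06 on the shControl arrays. The 5′ actin signal was 1202 and 1443 on the shSOX11 arrays and 777 and 831 on the shControl arrays. Its part in the size of the ITGB1 difference at different probe sets was not tested.

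ITGA4 encodes the alpha4 chain, which joins either beta1 or beta7. All 4 of its probe sets were above the threshold and higher on both shSOX11 arrays, but by unlike amounts. The brightest, 213416_at, was at 959 and 1283 on the shSOX11 arrays and 887 and 934 on the shControl arrays, 1.22-fold higher (log2 change 0.28, SE 0.18, limma adjusted p = 0.655 over genes). On shSOX11.1 this is 0.075 above the control mean on the log2 scale, and on shSOX11.3 it is 0.49. At 243366_s_at the order of the hairpins turned, with 295 for shSOX11.1 and 225 for shSOX11.3, against 218 and 190 on the shControl arrays (1.27-fold higher).

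The dimmer ITGA4 probe sets gave the larger differences. Probe set 205884_at was at 81.4 for shSOX11.1 and 184 for shSOX11.3, against 65.4 and 61.9 on the shControl arrays, 1.93-fold higher (log2 change 0.95, SE 0.37). Probe set 205885_s_at was at 138.2 for shSOX11.1 and 217 for shSOX11.3, against 85.4 and 126 on the shControl arrays, 1.67-fold higher. In both, shSOX11.3 carried most of the difference, with 1.53 and 1.06 above the control mean on the log2 scale against 0.36 and 0.41 for shSOX11.1. For ITGA4 the separation of the groups at the brightest probe set was thus narrow, and its 95% interval of -0.12 to 0.69 spans 0.

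**Figure D2:**
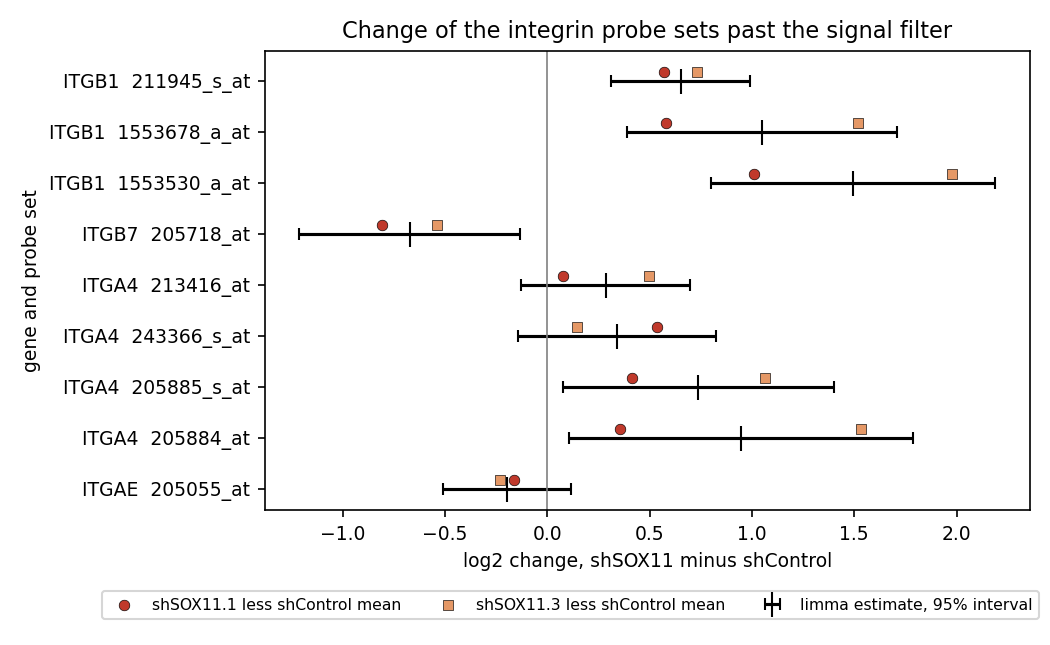
Log2 change (shSOX11 minus shControl) of the 9 tested integrin probe sets, with the limma estimate and its 95% interval as bars and each shSOX11 array's difference from the shControl mean as points. The 3 ITGB1 intervals lie above 0, the ITGB7 interval lies below it, and those of ITGAE and of the brightest ITGA4 probe sets span it.

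ITGB7 encodes the beta7 chain, and its single probe set, 205718_at, was at 74.7 and 90.0 on the shSOX11 arrays and 140 and 122 on the shControl arrays. Both shSOX11 values were below both control values. This is 1.59-fold lower, with a log2 mean of 6.36 ± 0.19 for shSOX11 and 7.03 ± 0.14 for shControl (SD, n = 2 each) and a log2 change of -0.67 (SE 0.23, limma adjusted p = 0.514 over genes, 95% interval -1.21 to -0.14). Unlike the dimmer ITGB1 and ITGA4 probe sets, ITGB7 was further from control on shSOX11.1 (-0.81) than on shSOX11.3 (-0.54).

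ITGAE encodes the alphaE chain, which pairs with beta7 and is known best from T cells of epithelia. Its single probe set, 205055_at, was at 3941 and 3748 on the shSOX11 arrays and 4555 and 4264 on the shControl arrays. The groups did not overlap, but the difference was 1.15-fold lower (log2 change -0.20, SE 0.13), less than the median absolute log2 change of 0.212 over all genes. Its limma adjusted p was 0.675 over genes.

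The 250 bases before the annotated start are shown for both beta chains that differed most, ITGB1 and ITGB7, and for ITGAE, whose window alone held the searched letters. SOX proteins bind short A- and T-rich DNA through their HMG box, so ACAAAG was searched on both strands, along with the variant ACAATG, the variant TCAAAG and the variant TCAATG. Sequences are RefSeq's (GRCh38.p14), on the gene's strand, 5′ to 3′, with a match in capitals.
ITGB1, chr10:32958231-32958480, minus strand: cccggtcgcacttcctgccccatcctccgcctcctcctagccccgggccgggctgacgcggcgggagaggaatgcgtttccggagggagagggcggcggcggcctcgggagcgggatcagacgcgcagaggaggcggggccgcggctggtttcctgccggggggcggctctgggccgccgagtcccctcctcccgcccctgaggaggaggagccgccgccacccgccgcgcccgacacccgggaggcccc
ITGB7, chr12:53207252-53207501, minus strand: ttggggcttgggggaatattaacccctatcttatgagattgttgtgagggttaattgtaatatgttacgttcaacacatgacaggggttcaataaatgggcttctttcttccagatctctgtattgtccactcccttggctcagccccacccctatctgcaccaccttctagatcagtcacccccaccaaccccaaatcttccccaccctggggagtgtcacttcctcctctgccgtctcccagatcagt
ITGAE, chr17:3801189-3801438, minus strand: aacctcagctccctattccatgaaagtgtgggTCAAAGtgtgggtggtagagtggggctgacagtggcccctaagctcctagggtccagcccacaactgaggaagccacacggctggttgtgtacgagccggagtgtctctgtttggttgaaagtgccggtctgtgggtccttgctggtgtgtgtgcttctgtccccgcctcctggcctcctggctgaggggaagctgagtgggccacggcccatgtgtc

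The table held 8 such windows for 6 of the integrin genes, and 1 of these held a match, TCAAAG on the gene's strand of ITGAE, starting 218 bases before the start. Of all 35116 windows of this length 33.3% held at least 1 match. The absence of these letters from the other windows, ITGB1 and ITGB7 included, describes only those bases. The ITGB1 window shown was 78.4% G and C, that of ITGB7 49.6% and that of ITGAE 60.0%.

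Since a chain reaches the surface only with its partner, the changes of partners were set side by side, within each array and each relative to the mean of the shControl arrays. Levels of different probe sets are not comparable, and only these differences were compared, without a test. The change of ITGA4 less that of ITGB7 was 0.88 for shSOX11.1 and 1.03 for shSOX11.3, against -0.13 and 0.13 on the shControl arrays. The change of ITGA4 less that of ITGB1 was -0.50 and -0.24 on the shSOX11 arrays, against -0.01 and 0.01 on the shControl arrays. For ITGAE less ITGB7 it was 0.65 and 0.31 on the shSOX11 arrays, against -0.05 and 0.05 on the shControl arrays. At the brightest probe set of each gene, ITGB1 RNA thus stood above ITGA4 RNA in relative change on both shSOX11 arrays. ITGB7 RNA stood below ITGA4 RNA on both. The chains themselves and their pairs at the surface were not measured. The order of beta1 and alpha4 depended on the probe set. On shSOX11.3 ITGA4 205884_at and 205885_s_at, at 1.53 and 1.06, lay above ITGB1 211945_s_at, at 0.73. On shSOX11.1 they lay below it, at 0.36 and 0.41 against 0.57. The other tested ITGB1 probe sets were at 1.52 and 1.98 on shSOX11.3.

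**Figure D3:**
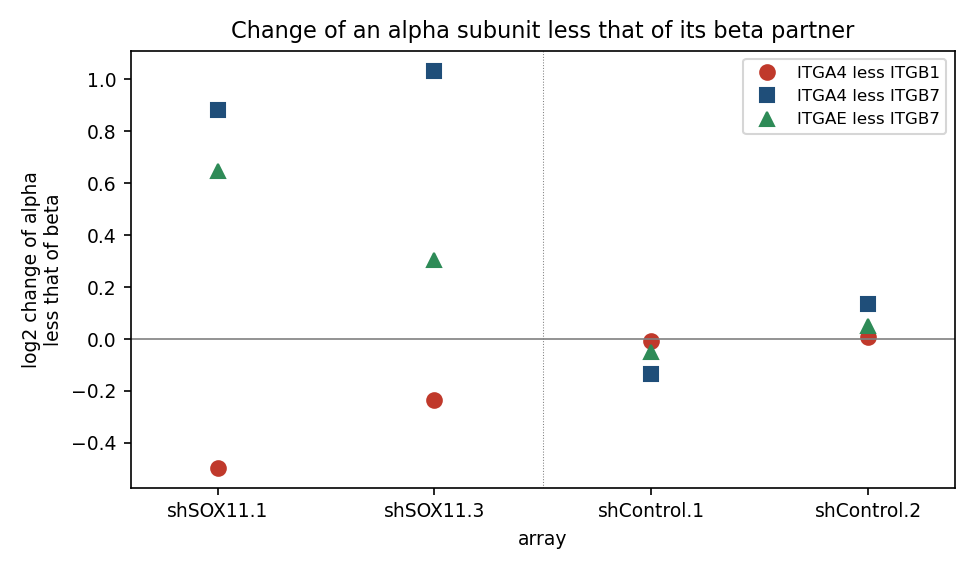
Log2 change of an alpha subunit less that of its beta partner on each array, where the shControl arrays centre on 0 by construction. ITGA4 less ITGB7 lies at 0.88 and 1.03 on the shSOX11 arrays and ITGA4 less ITGB1 at -0.50 and -0.24.

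ITGA5, the alpha chain of the classical fibronectin receptor, came closest to passing the signal filter. Its probe set 201389_at was at 10.2 and 13.7 on the shSOX11 arrays and at 24.2 and 43.7 on the shControl arrays. Both shSOX11 values were under the threshold and 1 of the 2 control values was above it, so that only a bound can be given. From the mean of the shControl arrays it is at least 1.31-fold lower. That bound rests on shControl.2, as shControl.1 was itself under the threshold. MAS5 signals this low are noisy.

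Little or no signal was measured for LFA-1. ITGAL, its alphaL chain, was at 25.8 and 20.2 on the shSOX11 arrays and 24.0 and 16.2 on the shControl arrays at 213475_s_at, with only the shSOX11.1 value above the threshold. Its second probe set was at 6.52 and 9.71 against 7.84 and 14.3. ITGB2, the beta2 chain, had 3 probe sets, and all 12 values were under the threshold, with a highest of 21.3 on shSOX11.3. ITGA6, the alpha6 chain of laminin receptors, had 2 probe sets with no value above 16.2. A signal under the threshold is not evidence that the RNA is absent. Among the probe sets of these 3 genes only ITGA6 215177_s_at separated the groups. It was at 6.21 and 6.12 on the shSOX11 arrays and 2.06 and 3.58 on the shControl arrays. Signals this low give no measure of a difference.

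Genes that work with integrins were described through 5 lists written from textbook knowledge. They name 110 genes, of which 75 were tested, and 0 passed an adjusted p of 0.05 in limma. Of the 75, 4 (ITGA2B, FERMT3, LIMS1 and FN1) passed the signal filter through 1 group alone and are left out of the counts and medians below. At an unadjusted p under 0.05, 2 of the remaining 71 were higher and 1 lower, or 2.82% and 1.41%, against 3.4% and 4.98% of all genes. With all 75 list genes the shares were 2.67% and 1.33%. The median log2 change over all genes was -0.06, against which the medians below are to be read. Genes that passed through 1 group alone were not left out of the shares and median over all genes.

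The integrin activation list holds proteins that act on integrins from inside the cell, and not all of them are activators. Of its 22 genes 17 were counted, with 6 higher, 11 lower and a median of -0.09. These counts therefore give no direction of activation. APBB1IP (RIAM), which brings talin to integrins through RAP1, was at 1241 and 879 on the shSOX11 arrays and 1548 and 1348 on the shControl arrays (log2 change -0.47, SE 0.19, limma adjusted p = 0.568). Of its 3 tested probe sets the other two lay on the higher side, up to 0.18. RAP1A, the small GTPase itself, had a log2 change of 0.24 (SE 0.15). FERMT3, the blood-cell kindlin that binds beta tails, was at 23.4 and 10.4 on the shSOX11 arrays and at 28.8 and 27.0 on the shControl arrays. Both shSOX11 values were under the threshold, so only a bound holds, at least 1.12-fold lower.

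In the adhesion complex list, proteins that link integrins to actin and signalling, 23 of 28 genes were counted, with 9 higher, 14 lower and a median of -0.05. The smallest p-values belonged to PARVB, a parvin that binds integrin-linked kinase (-0.35, SE 0.20, with 4 of 5 probe sets lower), to PTK2B, the kinase PYK2 (-0.57, SE 0.32), and to CDC42, a GTPase of the cytoskeleton (-0.27, SE 0.18). PTK2B was at 45.8 and 64.7 on the shSOX11 arrays and 95.3 and 68.1 on the shControl arrays. Their limma adjusted p lay between 0.637 and 0.671.

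Integrin traffic held both list members that were higher at an unadjusted p under 0.05. RAB4A, a GTPase of rapid endosomal recycling, was at 759 and 713 on the shSOX11 arrays and 578 and 542 on the shControl arrays (log2 change 0.39, SE 0.15, limma adjusted p = 0.546), with 2 of its 3 probe sets higher. SNX17, a sorting nexin that binds the beta1 tail and returns it to the surface, was at 320 and 424 on the shSOX11 arrays and 287 and 255 on the shControl arrays (log2 change 0.45, SE 0.19, limma adjusted p = 0.587). The tetraspanin CD151, which binds laminin-receptor integrins, was at 42.0 and 43.1 on the shSOX11 arrays and 71.2 and 55.4 on the shControl arrays (-0.56, SE 0.33). Of 22 genes on this list 20 were tested, 10 on each side, with a median of -0.01.

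Of 20 ligand genes 18 were matched to a probe set and 8 were counted, with 1 higher, 7 lower and a median of -0.18. JAM2, a junctional ligand of alpha4beta1, had a log2 change of -0.44 (SE 0.32), and the laminin chain LAMA5 one of -0.39 (SE 0.29). Fibronectin, FN1, was at 31.6 and 28.7 on the shSOX11 arrays and under the threshold on both shControl arrays, at 23.6 and 13.5, so that only a bound holds, at least 1.21-fold higher. Among the other integrin subunits 3 of 18 were counted, with 3 higher, 0 lower and a median of 0.10, and none of the 3 passed limma (adjusted p 0.819 to 0.977). ITGA2B, the platelet alphaIIb chain, was at 20.9 and 4.51 on the shSOX11 arrays and 32.5 and 25.8 on the shControl arrays, which is at least 1.17-fold lower, as it was under the threshold on both shSOX11 arrays. ITGA10 (0.38, SE 0.47) and ITGAM (0.10, SE 0.55) lay near the threshold too.

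**Figure D4:**
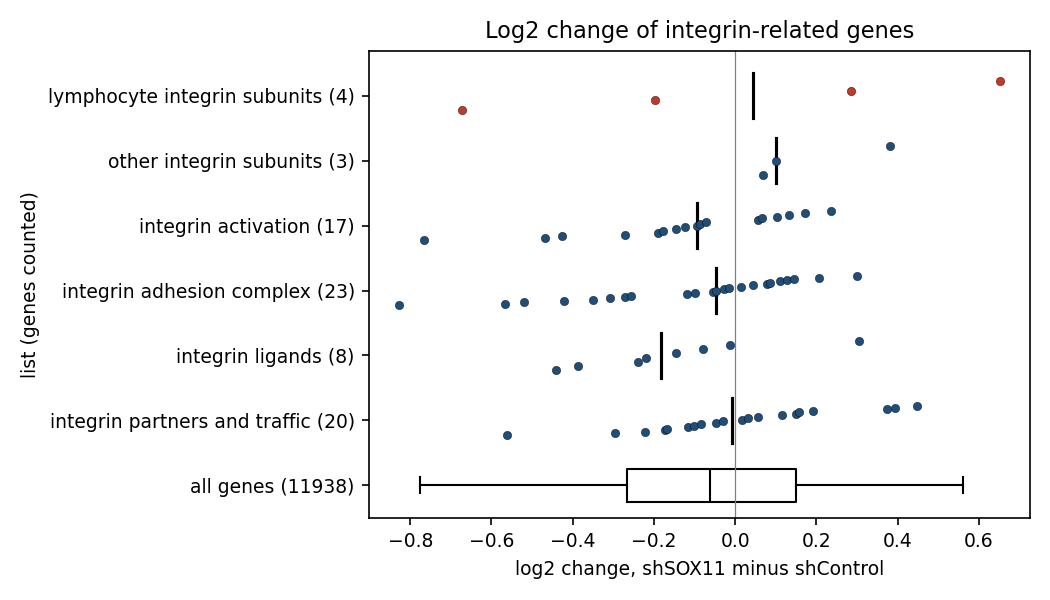
Log2 change (shSOX11 minus shControl) of the tested integrin subunits and of the counted genes of the 5 related lists, 1 point per gene, with a bar at the median. The box below shows all 11938 genes (median line, quartiles, and whiskers at the 5th and 95th percentile).

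ITGB1 had the smallest p of the integrin genes, and the 5 genes whose log2 signals, centred on their own mean, lay nearest to it over the 4 arrays were NBR1, CEP70, NNT, CDIN1 and PIK3R3. Their Euclidean distances were 0.0245, 0.0453, 0.0476, 0.0513 and 0.0600. The median over 11937 genes was 0.842, and these 5 lie under it because they were chosen as the smallest distances. NBR1, a receptor for selective autophagy, was at 449 and 512 on the shSOX11 arrays and 301 and 315 on the shControl arrays. NNT, a mitochondrial transhydrogenase, was at 1028 and 1149 on the shSOX11 arrays and 704 and 708 on the shControl arrays. Within a distance of 0.1 lay 15 genes.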

How the data were processed

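Total RNA of 4 Z138 samples was hybridised to 1-colour Affymetrix U133 Plus 2.0 arrays, per the labels. The deposited file gives the authors' MAS5 intensity on a linear scale. Affymetrix Expression Console and MAS5 are the tools in the submitters' processing notes, and for their versions and scaling target nothing is given in the sources used here. The 2% trimmed mean was 150.0 on each array, so no further scaling was applied. MAS5 subtracts mismatch signals, which makes dim values noisy. The number of arrays limits the precision.

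Genes came from the platform annotation, with 41091 probe sets of 1 symbol, and 62 array controls were left out of every fit. Of their Entrez identifiers 41037 matched the RefSeq gene table, and 0 symbols changed. Signals were taken to log2, with no pseudocount. A probe set was fitted if at least 2 arrays exceeded 24.8, the median of the table. The fit was limma 3.58.1 in R 4.3.3 (lmFit, eBayes with an intensity trend, two-sided, Benjamini-Hochberg adjustment over all features), once per probe set (28202) and once per gene (11938, brightest probe set by mean log2 signal). Groups came from the sample titles. The code of the fit was checked on simulated arrays with the same noise in both groups, which says nothing on the calls made here. Where both arrays of one group lie under 24.8, the fold is a bound, the mean of the other group over 24.8.

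All integrin probe sets were covered, though some under the threshold were given without their identifier, or only as a range or highest value. Each list gave up to 4 genes past the adjusted threshold, filled up to 3 by smallest p, and 5 genes were named for likeness to the integrin gene of smallest p. The integrin genes and lists were chosen with earlier results of these data known. Leaving list genes that passed the filter through 1 group out of the counts was decided after their values were seen. Alternatives were median centring, quantile normalization, adding 32 before the log, a filter at the 35th percentile, at the 65th or none, no trend, the robust option, averaging the probe sets of a gene, dropping _x_at probe sets, and leaving out each array.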

Additional observations from a re-analysis of the deposited data

How the results depend on the processing

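No paired analysis was possible because the numbers in the sample titles name hairpin constructs, and no construct was used in both groups. The direction of ITGB1, ITGA4, ITGB7, ITGAE and SOX11 held in every alternative run, by gene and at each of the 9 integrin probe sets tested. Without a signal filter the 4 ITGB1 probe sets under the threshold on every array also entered, with the opposite sign (log2 change -1.56 to -0.37). With no array left out, 0 integrin genes or probe sets, 0 list members and 0 of all genes passed an adjusted p of 0.05 in limma. Under an unadjusted 0.05 lay 1001 genes in the main fit, and 891 to 1455 in these alternatives. In the same runs the gene-level log2 change was 0.64 to 1.06 for ITGB1 and 0.28 to 0.58 for ITGA4. It was -0.67 to -0.51 for ITGB7 and -0.20 to -0.11 for ITGAE. The upper ends for ITGB1 and ITGA4 come from averaging each gene's probe sets. The change of ITGA4 less that of ITGB7 was 0.79 with a pseudocount of 32 and 1.25 with the mean of probe sets. The probe sets past the threshold, 1 in all, became 0 with median centring, the 65th percentile filter, no filter or no trend.

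Leaving out an array gave 0 to 1585 probe sets and 0 to 953 genes past the threshold (200 probe sets and 211 genes without shSOX11.3, the highest counts without shSOX11.1, 0 without either shControl array). The same fits called 0 to 5 integrin probe sets, 0 to 2 integrin genes and 0 to 4 list members. ITGB1 passed without shSOX11.1 (log2 change 0.73, limma adjusted p = 0.011) and without shSOX11.3 (0.57, 0.037), and ITGA4 passed without shSOX11.1 (0.49, 0.043), where its range over the left-out arrays was 0.075 to 0.49. SOX11 ranged from -1.24 to -1.23. A lone shSOX11 array takes its error from the narrower spread of the shControl arrays, so these calls are no test of the hairpins' own spread. Signals near the threshold, those of ITGA5 and ITGAL, limit what can be compared.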
